A study of Homo sapiens with 7 samples.

Results

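Sodium-proton exchangers of the SLC9 family were followed in HCT116 H2B-GFP cells that had been treated with bafilomycin A1. The members are 6 genes. SLC9A2, SLC9A3 and SLC9A5 encode exchangers of the plasma membrane, and SLC9A7, SLC9A8 and SLC9A9 encode exchangers of endosomes and the Golgi apparatus. They were chosen by gene name among the non-control spots of the arrays, which gave 8 probes for 6 of the 36337 gene names. HCT116 is a human colon carcinoma cell line, here labelled diploid, and this derivative carries histone H2B fused to the green fluorescent protein. The 4 arrays are labelled as replicates of cells given 10 nM bafilomycin A1 for 30 h, and 100 ng of total RNA entered each labelling reaction. The 3 untreated samples of the series were not analysed here. The values are therefore levels in treated cells of 1 cell line, and no change caused by the drug can be read from them.

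These proteins exchange a proton for a sodium ion, or for a potassium ion in several of the intracellular members. At the cell surface this moves acid out of the cell and sodium in, and in the colon the apical exchangers take part in salt and water absorption. In endosomes and the Golgi apparatus the exchangers let protons leave the lumen, against the acidification by the vacuolar proton pump. Bafilomycin A1 inhibits that pump.

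Each probe is a strand of 60 bases that binds the labelled RNA. The sequences are shown because every value below rests on 1 to 3 such probes per gene, and they are given 5′ to 3′ in lower case as the scanner files list them. Probes of SLC9A3, SLC9A7 and the first of SLC9A5 are printed whole and the other probes by their first 30 bases, and no letters are in capitals since no motif was searched.
SLC9A2, start 5375: aaacgtgattaaagagatcactttgtccgg
SLC9A3, start 1698: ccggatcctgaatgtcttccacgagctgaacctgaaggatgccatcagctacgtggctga
SLC9A5, start 1816: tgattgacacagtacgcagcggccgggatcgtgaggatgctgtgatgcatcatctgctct
SLC9A5, start 1919: agagccctgtggcatgctactaaagacttt
SLC9A5, start 3655: caggtgactttctagggatcagcacctgcc
SLC9A7, start 1984: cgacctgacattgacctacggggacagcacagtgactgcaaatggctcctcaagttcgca
SLC9A8, start 5856: aggatctgcaaatcttgaatcgtcctcaaa
SLC9A9, start 3481: ttttttgctttccaaacagaatctctgggg
The start is the position the files give, read here as the position in the target transcript. Whether a probe lies in coding sequence or in a UTR is not given in the sources used here.

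In the GRCh37 coordinates of the files, the SLC9A2 probe lies at chr2:103327743-103327802 on the plus strand and the SLC9A3 probe at chr5:479952-480011 on the minus strand. The SLC9A5 probes lie on the plus strand at chr16:67293761-67293820, chr16:67296130-67296189 and chr16:67306015-67306074, so the outer starts are 12254 bases apart. The SLC9A7 probe lies at chrX:46466529-46466588 on the minus strand, the SLC9A8 probe at chr20:48508374-48508433 on the plus strand and the SLC9A9 probe at chr3:142984150-142984209 on the minus strand. The middle SLC9A5 probe targets the Ensembl transcript ENST00000360183, whereas the outer ones target the RefSeq transcript NM_004594. GC content ranged from 36.7% for SLC9A9 to 55.0% for SLC9A3, SLC9A7 and the first SLC9A5 probe. The longest run of bases that a member probe shared with any other probe of the array was 13 to 16 bases.

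Signals are background-subtracted intensities on a linear scale, and levels are log2 signals minus the median of the array. A spot counts as well above background when the scanner software flagged it so. Detection of a gene required that 1 or more of its probes carry this flag on each of the 4 arrays. The arrays had 58717 non-control spots each, of which 55.6% to 60.4% were well above background, with the lowest share on replicate 4. Replicate 3 had 2249 outlier spots against 514 to 725 on the others, and 1916 of its outliers concerned the local background around a spot.

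Of the 3 plasma membrane members, 1 was detected on all 4 arrays. Of the 3 endosome and Golgi members 2 were, or 3 when a flagged SLC9A7 spot on replicate 3 was kept. Other genes of the family are not in these counts. In all, 3 of 6 members were detected, beside 52.5% of all gene names. By probe, 4 of 8 member probes were well above background on all 4 arrays, beside 48.7% of all probes. The members' shares are near these backgrounds, and the plasma membrane and intracellular genes are too few for a test of their difference. Since RNA came from whole cultures, fewer expressing cells and less RNA per cell cannot be told apart.

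**Figure D1:**
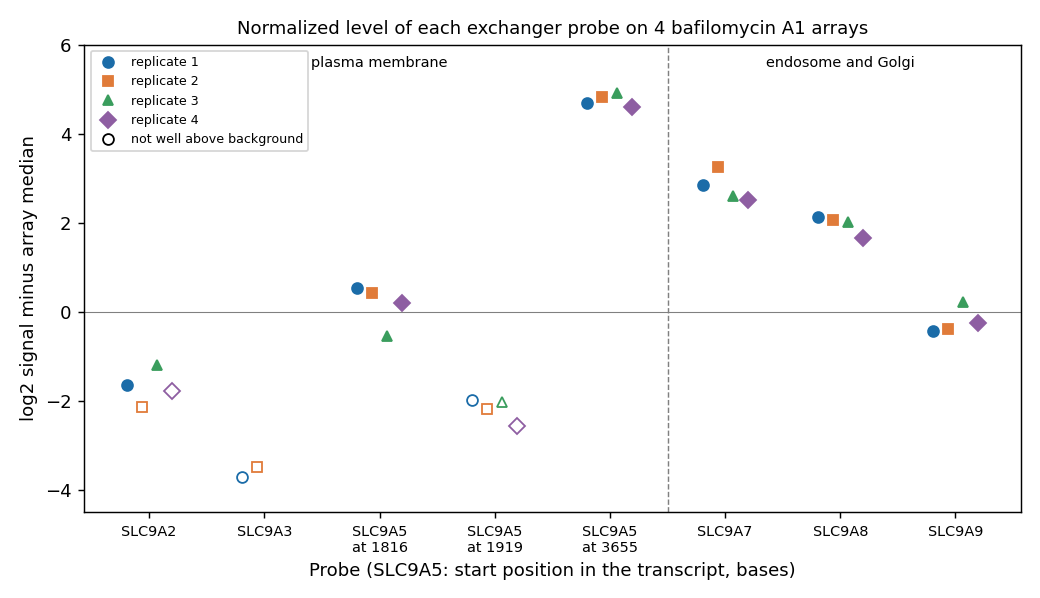
Log2 signal minus the array median (vertical axis) for each of the 8 exchanger probes (horizontal axis) on the 4 bafilomycin A1 arrays, 1 symbol per replicate, with open symbols where the spot was not well above background. SLC9A3 has no symbol on replicates 3 and 4 because its signal was below 0, and the SLC9A7 symbol of replicate 3 is the spot flagged for its local background; heights can be compared between arrays of 1 probe but not between probes.

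SLC9A3 encodes the apical exchanger that carries much of the sodium absorption of the intestine. Its signal was 5.95 on replicate 1 and 6.27 on replicate 2, and it was below 0 on the others, at -0.51 on replicate 3 and -0.67 on replicate 4. The probe was well above background on 0 of 4 arrays, so only a bound can be given, and the lowest signals among spots well above background were 20.8 to 22.3. Signals of replicates 1 and 2 were 1.4 times their own scanner error.

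SLC9A2 encodes another apical exchanger of epithelial cells. Its signal was 24.7, 16.0, 30.7 and 18.4 on replicates 1 to 4, and it was well above background only on replicates 1 and 3. The measured level was -1.69 ± 0.39 (log2, SD, n = 4). Since 2 of the 4 values were not well above background, no order or span is read from them, and the SD was 0.10 with normexp and quantile normalization. The signal lay between 3.5 and 5.9 times its error, at the edge of what these arrays call.

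SLC9A5, an exchanger best known from neurons, was the only plasma membrane member detected on all 4 arrays, and its 3 probes disagreed. The probe at start 1816 gave signals of 111.5, 94.7, 48.7 and 73.4 and was well above background on all 4 arrays. Its level was 0.16 ± 0.48 (log2, SD, n = 4) and spanned 2.09-fold, with replicate 3 below the others. The probe at start 1919 gave 19.6, 15.5, 17.3 and 10.75 and was well above background on 0 arrays. The probe at start 3655 gave 2006.9, 1997.2, 2123.8 and 1538.9, was well above background on all 4 arrays and spanned 1.25-fold, with a level of 4.76 ± 0.14 (log2, SD, n = 4). Relative to its own mean, replicate 3 stood at -0.69 by the probe at start 1816 and at 0.16 by the probe at start 3655 (log2). Replicate 3 was thus lowest by one probe and highest by the other of the same transcript. The low value at start 1816 held under all 3 scalings (-0.69, -0.78 and -0.34), whereas the high value at start 3655 was absent under normexp and quantile normalization (-0.01). The median over probes, used for the gene, equals the probe at start 1816.

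**Figure D2:**
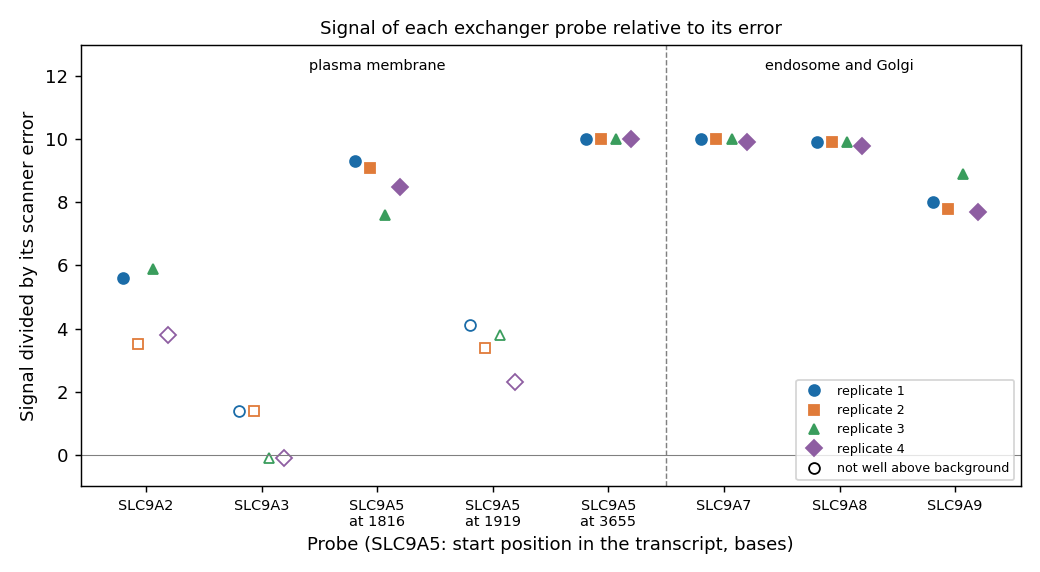
Background-subtracted signal divided by the error the scanner software gives it (vertical axis) for each exchanger probe (horizontal axis), 1 symbol per replicate, open where not well above background. SLC9A3 lies at or below 1.4, SLC9A2 between 3.5 and 5.9, and SLC9A7, SLC9A8 and the SLC9A5 probe at start 3655 near 10.0.

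SLC9A7 encodes an exchanger of the trans-Golgi network. Its signal was 557.0, 668.9 and 363.8 on replicates 1, 2 and 4, a level of 2.88 ± 0.37 (log2, SD, n = 3). The spot on replicate 3 gave 428.8 and was well above background, but it carried the flag for an outlying local background and was left out. The subtraction in the file used a background of 44.7 for this spot, against 45.5 on replicate 2 and 49.3 on replicate 4. With it the level was 2.81 ± 0.33 (log2, SD, n = 4), and the span stayed 1.66-fold because replicates 2 and 4 set it.

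SLC9A8, an exchanger of the Golgi apparatus that is also found at the apical surface of intestinal cells, gave signals of 339.9, 294.4, 285.6 and 200.3. Its level was 1.97 ± 0.22 (log2, SD, n = 4). Replicate 4 was the lowest under all 3 scalings. Relative to the probe's mean, the other arrays lay at 0.05 to 0.17 with the array median as the scale (log2). They lay at -0.02 to 0.17 with the 75th percentile of the processed signal and at -0.03 to 0.16 with normexp and quantile normalization.

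SLC9A9, an exchanger of recycling endosomes, gave signals of 57.2, 53.6, 81.6 and 53.6 and was well above background on all 4 arrays. Its detection rests on 1 probe with low signals, which overlap the 50.16 to 63.5 of CD3E, a marker of another cell type. Its level was -0.21 ± 0.30 (log2, SD, n = 4) and spanned 1.57-fold. Replicate 3 was the highest under all 3 scalings. Relative to the probe's mean, the other arrays lay at -0.22 to -0.03 with the array median as the scale (log2). They lay at -0.24 to 0.07 with the 75th percentile of the processed signal and at -0.12 to 0.04 with normexp and quantile normalization.

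**Figure D3:**
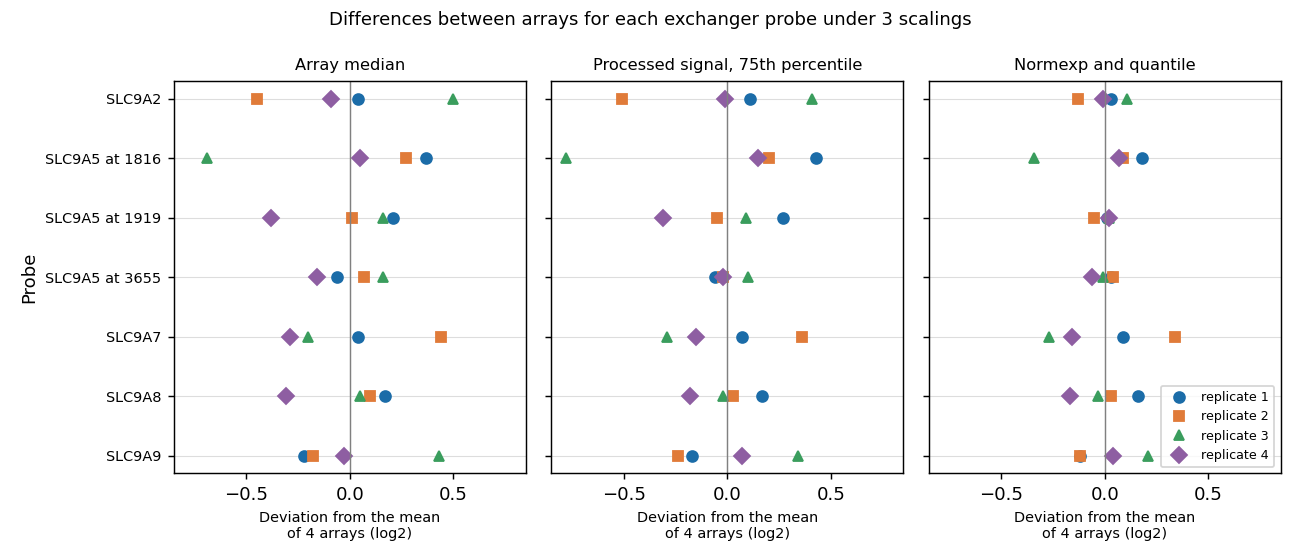
Deviation of each array from the probe's mean over 4 arrays (log2, horizontal axis) for the 7 exchanger probes with 4 values (vertical axis), under 3 scalings, 1 symbol per replicate, flagged spots kept. Replicate 3 is lowest for SLC9A5 at start 1816 and highest for SLC9A9 in each panel, and normexp with quantile normalization narrows the dim probes most. No order is read for SLC9A2, which was not well above background on all arrays.

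The spread between arrays was next set beside that of all detected genes, whose median SD was 0.21 (log2, quartiles 0.14 and 0.31). The SD was larger than that of 88.8% of detected genes for SLC9A5, of 72.5% for SLC9A9 and of 52.6% for SLC9A8. These places depend on the probe and on single arrays. The SD of SLC9A5 was 0.21 over its detected probes alone and 0.17 without replicate 3, that of SLC9A9 was 0.10 without replicate 3, and that of SLC9A8 was 0.06 without replicate 4. A span above 1.4-fold was found for 2 of the 3 detected members, SLC9A5 and SLC9A9, beside 46.4% of all detected genes. The span of SLC9A8 was 1.4-fold after rounding, so it lay at the threshold without passing it. With the flagged spot kept SLC9A7 made the count of spanning members 3, and without replicate 3 only SLC9A7 spanned over 1.4-fold. None of the 3 detected members stood apart by Dixon's ratio, the gap between the extreme array and its nearest neighbour over the whole range, beside 8.48% of detected genes. Over the 5 probes well above background on all 4 arrays, flagged spot kept, replicate 4 was the lowest in 3 with the array median as the scale, in 1 with the 75th percentile of the processed signal and in 2 with normexp and quantile normalization, so no array was low throughout. Replicate 4 had the lowest median signal and the smallest share of spots well above background, and the part of this in the member values was not tested.

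Of 5 other SLC9 genes looked at, 3 were detected on all 4 arrays. SLC9A4 was detected by 2 of 3 probes, with levels of 2.27 ± 0.23 and 3.11 ± 0.21 (log2, SD, n = 4). SLC9B1 was detected by 1 of 6 probes, at -1.24 ± 0.11 (log2, SD, n = 4). SLC9B2 was detected by its single probe, at 0.13 ± 0.23 (log2, SD, n = 4). SLC9A10 and SLC9A11 were well above background on no array. SLC9A7P1, a pseudogene copy of SLC9A7 that was picked after its values were seen, had a probe well above background on all 4 arrays at 3.07 ± 0.11 (log2, SD, n = 4). Whether SLC9A7 RNA and the pseudogene's RNA cross-hybridise was not tested.

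**Figure D4:**
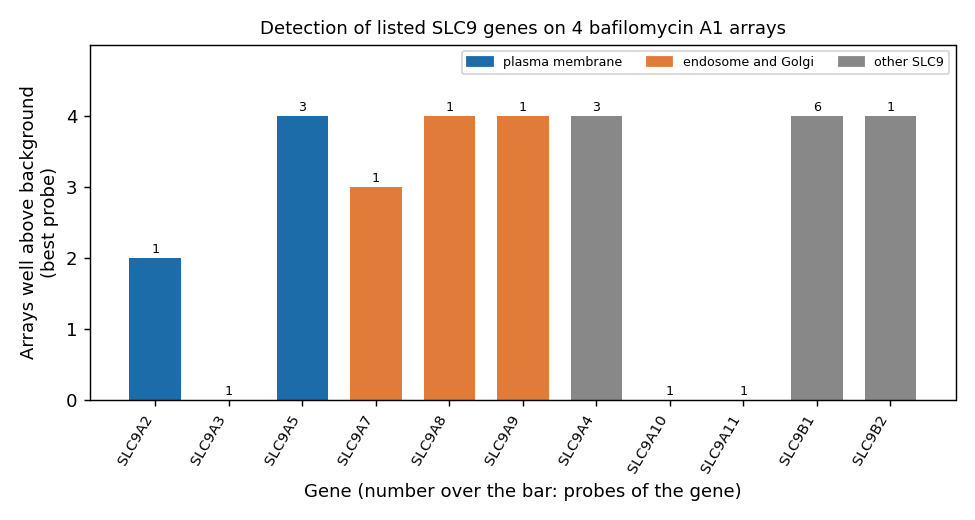
Number of arrays on which the best probe of each listed SLC9 gene was well above background (vertical axis, 0 to 4) with the number of probes over each bar, for plasma membrane, endosome and Golgi, and other SLC9 genes. SLC9A3, SLC9A10 and SLC9A11 are at 0, SLC9A2 at 2, and SLC9A7 at 3 because its flagged spot was left out.

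Of 17 genes for partners and neighbours of these exchangers in pH and salt transport, 11 were detected and 6 were well above background on no array. Among all gene names 52.5% were detected. The detected partners were SLC9A3R1, SLC9A3R2, CHP, TESC, EZR, SCAMP1, SCAMP2, GNB2L1, SLC26A6, CA2 and SLC4A7. The undetected ones were PDZK1, PDZD3, CHP2, CFTR, SLC26A3 and SLC4A4. The median SD of the detected partners was 0.20, against 0.21 over all detected genes. Of 10 colon epithelial markers 8 were detected, with VIL1 and LGR5 on no array. Of 10 markers of other cell types 5 were detected, namely PTPRC, CD3E, COL1A1, VWF and TUBB3, while COL1A2, PECAM1 and ALB were on no array. This share is near the 52.5% of all gene names. PTPRC was detected by 1 of 5 probes, and CD3E had signals of only 50.16 to 63.5, a range that overlaps that of SLC9A9. The summed level of the other cell type markers, as a multiple of the array median, ranged from 143.5 to 199.1, nearly all of it from TUBB3, since the lowest sum without that gene was 9.1, and their part in the member values was not tested.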

How the data were processed

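Total RNA of the 4 treated samples was labelled with Cy3 and hybridised to single-colour Agilent arrays, and the authors deposited the scanner output of Feature Extraction 10.7.3.1, with probe coordinates on GRCh37. Per the file headers, the deposited intensities are a background-subtracted signal, its error, the mean signal and a processed signal, not yet normalized between arrays. Other deposited columns are scanner flags of 0 or 1.

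Control spots were removed, and spots with an outlier flag for the spot or its local background were left out. Spots of a probe were averaged, taken to log2 and centred on the array's median over probes with a positive value, which affects any gene whose signal is near 0. A gene's value was the median over its probes. A probe was well above background where over 50% of its used spots were so flagged. Spread was the SD and the fold between the highest and lowest array (threshold 1.4-fold), with Dixon's ratio (critical value 0.829). The number of arrays limits the precision, and the labels do not say whether the replicates were separate cultures.

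Alternatives were the processed signal at its 75th percentile, limma 3.58.1 (normexp, offset 50, with quantile normalization) in R 4.3.3, other detection and probe rules, flagged spots kept, and each array left out. Tables were made in Python 3.11.15 with numpy 2.4.6 and pandas 2.3.3. No test between groups was run, since the untreated samples were not analysed here. The spread and Dixon steps were tested on simulated data, and the outcome is not given here. Named genes were all 6 members with every probe, 5 other SLC9 genes, SLC9A7P1, the listed partners and some of the markers. Some listed genes of the family are not reported here. Members and lists were chosen with earlier results of these data known. A planned comparison of protein sequences was not made.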

Additional observations from a re-analysis of the deposited data

How the results depend on the processing

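The count of members well above background on all 4 arrays was 3 and became 5 when at least 1 array sufficed. It was 4 with a positive and significant signal as the rule, with flagged spots kept, and with local background flags ignored, a setting chosen after seeing the data. It ranged from 3 to 4 when each array was left out. The count of member probes stayed within 4 to 6. The count of members spanning over 1.4-fold was 2 and became 1 with normexp and quantile normalization (SLC9A5) and 1 with only detected probes (SLC9A9). Leaving out each array gave 1 to 2, the 1 without replicate 3, where SLC9A7 was the member left. The SD between arrays ranged over the alternatives from 0.10 to 0.48 for SLC9A2, from 0.17 to 0.59 for SLC9A5, from 0.25 to 0.37 for SLC9A7, from 0.06 to 0.26 for SLC9A8 and from 0.10 to 0.36 for SLC9A9. The tolerance for an SD was the scatter of that SD when arrays were left out one at a time. Of 44 such values 36 stayed within it and 8 fell below it. The 44 include the SDs with an array left out, which set the tolerance themselves. They also include settings that left the values of most members unchanged. The count of 36 is therefore no measure of robustness. Without replicate 3 the SD of SLC9A5 was 0.17 and that of SLC9A9 was 0.10, and without replicate 4 that of SLC9A8 was 0.06. SLC9A7 had too few values for most arrays to be left out. The cause of these shifts was not tested. No paired analysis was possible because only 1 group was analysed.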
